A study of Aspergillus nidulans with 6 samples.

Results

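The comparison described here was that of the deletion strains of *Aspergillus nidulans* with their parent in cultures that received no salt, and it rested on 3 of the 6 RNA-seq libraries of the series, chosen by their strain and treatment labels: 1 of the parent TN02A7, 1 of Δ*cnaB* (strain WSA08) and 1 of Δ*cnaB*Δ*cchA* (strain LXA05). The parent was pyrG89; riboB2; pyroA4 nkuA::argB2; veA1. The Δ*cnaB* strain was pyrG89 ΔcnaB::pyrG; riboB2; pyroA4 nkuA::argB2; veA1. The Δ*cnaB*Δ*cchA* strain was pyrG89 ΔcnaB::pyrG; nkuA::argB2; ΔcchA::pyrG; veA1. Both deletion strains therefore carried a *pyrG* marker that the parent lacked, all 3 strains carried the *nkuA* replacement and veA1, and each genotype was represented by a single strain, so that the loss of *cnaB*, the marker and the history of the individual strains cannot be told apart. Shaken liquid cultures were grown for 18 h and then held for another 30 min with 0 mM NaCl, and the other 3 libraries came from cultures of the same strains that received 800 mM NaCl for those 30 min. The question addressed by the untreated libraries was what the loss of the calcineurin regulatory subunit did to the transcriptome before any salt was added.

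Calcineurin is a protein phosphatase that is switched on by Ca2+ and calmodulin. It consists of a catalytic subunit, CnaA, and the Ca2+-binding regulatory subunit CnaB, without which the enzyme is not active. In filamentous fungi its best known substrate is the zinc-finger transcription factor CrzA, which enters the nucleus when dephosphorylated and acts on genes for Ca2+ pumps, cell wall enzymes and stress proteins. CchA is the pore-forming subunit of the high-affinity Ca2+ channel of the plasma membrane, and it works together with MidA. In *A. nidulans* the loss of calcineurin is known for poor hyphal growth.

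Values were TMM-scaled RPM (reads per 1000000 mapped reads), here rescaled together for the 3 untreated libraries, and they are given below in the order parent, Δ*cnaB*, Δ*cnaB*Δ*cchA*. They are not divided by gene length, so levels are compared between strains and not between genes. The deposited tables list a gene only from 1 unit upwards, and anything below is written here as listed at 0; on the common scale the highest of the 3 listing limits was 1.17, and lower values were set to it before a log2 difference was taken. By the value of 1 read the untreated libraries held 41369564 to 50006318 reads, and between 8395 and 8498 of the 10957 genes were listed in each. These totals are above the clean reads that the paper reports for the same libraries, and the reason was not tested. No strain had a replicate, so a gene was called by size, when both deletion libraries differed from the parent library by more than 1 on the log2 scale (2-fold) in the same direction. Both differences share the single parent library, so an error in that library would enter them alike.

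As a second reading, limma was fitted to all 6 libraries. There the spread between the Δ*cnaB* and Δ*cnaB*Δ*cchA* libraries of the same treatment stood in for replicate error, which left 2 residual degrees of freedom, and the lone parent library was assumed to vary like the deletion libraries. All adjusted p-values below are two-sided, from limma and adjusted by the Benjamini-Hochberg method over 9060 genes. In that fit the deletion strains are treated as replicates, although each strain gave 1 library of each treatment. A fit with strain as a block, added after seeing the data and with 1 residual degree of freedom, is given beside each adjusted p or limma count below whose call it changed. The block takes stable differences between the deletion strains out of the error, so its p-values do not allow for variation from strain to strain. The blocked fit passed *cchA* as lower in the deletion strains, although Δ*cnaB* was at 94.3 against 71.6 in the parent. The unblocked fit did not pass that gene. The blocked counts are therefore not a correction of the unblocked ones. The adjusted p-values of the unblocked fit depended on all 4 deletion libraries: when any one of these was left out, 0 genes passed an adjusted p of 0.05 in either direction, with 1452 to 1831 higher and 945 to 1411 lower at an unadjusted p under 0.05.

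The deleted genes matched the strain labels. *cnaB* (AN6566) was at 83.3 in the parent and listed at 0 in both deletion libraries, as it was with salt. The channel gene *cchA* (AN1168, named *cch1* in RefSeq) was at 71.6 in the parent and 94.3 in the single deletion, and at 4.11 in the strain that lacks it. *pyrG*, which encodes the last enzyme of uridine monophosphate synthesis, was at 63.2, 55.4 and 57.2, within 2-fold of the parent although the marker was added. *riboB* and *pyroA*, enzymes of riboflavin and pyridoxine synthesis, were at 35, 37.7 and 63.5 and at 208, 142 and 155. The source label reads conidia, but the protocol describes shaken cultures. Of 5 conidial markers, the hydrophobin gene *dewA* was listed at 0 in all 3 libraries, *catA* in 1 and *rodA* in 2. *wetA* was at 3.02, 1.34 and 1.51 and *vosA* at 16.8, 17.8 and 16.2, and the summed level of the list was 37.9, 46.5 and 17.7. The 5 conidiophore markers summed to 24.1, 28.7 and 29.3. Among them the regulator *brlA* was at 1.64, 0 and 0 and *abaA* at 3.10, 3.88 and 2.58. Higher in both deletion libraries were *yA* (12.8, 14.6 and 16.5), *ivoB* (4.05, 5.78 and 6.15) and *pksP* (2.54, 4.44 and 4.15). The 3 markers of growing hyphae summed to 8500, 14064 and 13700, most of it glyceraldehyde-3-phosphate dehydrogenase (*gpdA*, 6544, 12070 and 11584), while actin was at 1909, 1931 and 2048. The part of these shifts in the results below was not tested.

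More genes were higher than lower in the deletion strains. Of 8731 genes that reached 1.17 on the common scale in at least 1 untreated library, 980 (11.2%) were higher in both deletion libraries. Lower in both were 422 (4.83%). The median difference of the called genes was 1.71 log2 units among the higher and −1.45 among the lower. The higher genes reached further: 119 had a mean difference above 3 log2 units and 38 above 5, against 31 and 4 of the lower genes. Of the higher genes 91 were listed at 0 in the parent, and 31 of the lower genes were listed at 0 in both deletion libraries. In the parent the higher genes together made up 7.26% of all values, and in the deletion strains 22.3% and 22.5%. This split depended on the scaling. When the libraries were set to equal totals, the median gene moved down by 0.24 and 0.26 log2 units and 732 genes were higher against 783 lower; the values as deposited gave 708 and 854. All 422 lower genes were called under both of those scalings, and 732 and 706 of the 980 higher genes. Limma passed 829 genes (9.15%) as higher and 337 (3.72%) as lower, and 627 of the 980 and 195 of the 422 were among them. With the strain block 1025 genes were higher and 567 lower, and 727 of the 980 and 299 of the 422 were among them. Both readings rest on the same untreated libraries as the size rule.

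Most of the called genes had like values in the 2 deletion libraries. The rule takes only genes that pass in the same direction in both, against the same parent library. Part of this likeness is therefore set by the choice of genes, and the same share over all genes was not computed. Against the parent, the single deletion had 1172 genes (13.4%) more than 2-fold higher and 532 (6.09%) lower, and the double deletion 1347 (15.4%) and 781 (8.95%). Among the genes called in both, the deletion libraries differed from each other by more than 1 log2 unit for 62 of the 980 higher and 24 of the 422 lower genes. With 1 library each, the difference between the deletion strains could not be set against replicate error.

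The calcium pumps did not move together. *pmcA* (AN1189), a vacuolar Ca2+-ATPase gene, was at 98.7, 10.4 and 13.4, from about 4580, 411 and 630 reads. Both deletion libraries were far below the parent, by −3.24 log2 units (95% counting interval −3.39 to −3.10) and −2.88 (−3.00 to −2.76), and the limma estimate was −3.06 ± 0.27 (SE), adjusted p = 0.024. Intervals of this kind cover counting error only, and with 50% of the reads they were −3.46 to −3.04 and −3.05 to −2.71. A related pump gene, *pmcB* (AN4920), was at 21.2, 5.68 and 8.70, also lower in both deletion strains, by −1.90 and −1.29 log2 units (limma adjusted p = 0.069). The third member of the family in the data, *pmcC* (AN8399), was higher instead, at 24.9, 51.4 and 52.8 (limma adjusted p = 0.040), a difference just past 2-fold that was not called with equal totals or with the deposited values. With 800 mM NaCl the parent itself had only 17.0 of *pmcA*, close to the 13.8 and 11.1 of the deletion strains, and *pmcB* was at 27.3, 33.3 and 25.5, so neither pump was called there. The difference between the treatments was tested for *pmcA* and gave an interaction of −2.59 log2 units that did not pass (limma adjusted p = 0.146, and 0.150 with the strain block).

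**Figure D1:**
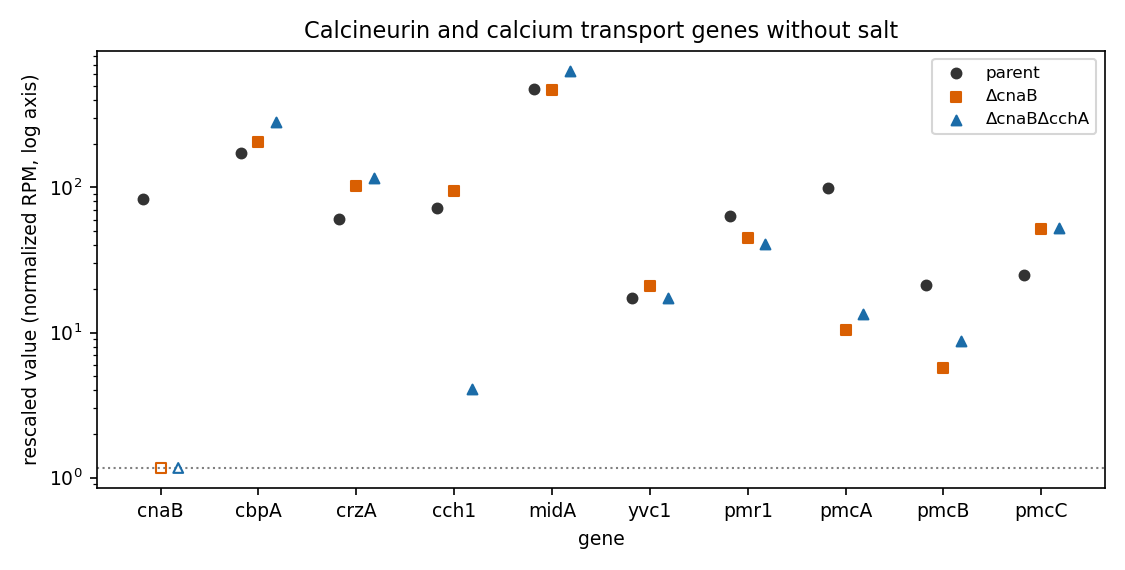
Levels of calcium signalling and transport genes in the 3 untreated libraries, on a log axis of TMM-rescaled RPM, 1 point per library. *pmcA* sits at 98.7 in the parent and at 10.4 and 13.4 in the deletion strains, *pmcB* is also lower and *pmcC* higher in both, and open points on the dotted line are genes listed at 0.

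The following calcium genes stayed within 2-fold of the parent in both deletion strains. The Golgi Ca2+ pump gene *pmr1* was at 63.6, 45.0 and 40.5, *midA* at 479, 468 and 637, and *yvc1*, which encodes a vacuolar cation channel, at 17.4, 21.0 and 17.2. *crzA* itself was at 60.6, 102 and 116, not past the limit (limma adjusted p = 0.056, and 0.042 with the strain block). *cbpA* was at 173, 204 and 282. The calcineurin and calmodulin list had 8 entries, of which only *cnaB*, *crzA* and *cbpA* were found and tested. Only the deleted *cnaB* was called, and the genes of the catalytic subunit and of calmodulin were not tested. Of the 7 calcium transport genes tested, 1 was thus higher and 2 were lower, against 11.2% and 4.83% of all genes, and their median difference was −0.58 log2 units against 0.01 over all genes tested. The list includes *cchA*, which is deleted in 1 of the strains, and without it the median of the other 6 was −0.23.

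Genes for ribosome assembly were lower in the deletion strains almost as a block. The list held 32 genes for the processing of ribosomal RNA and the assembly of the subunits in the nucleolus, of which 20 were lower in both deletion strains, against 4.83% of all genes, and 0 were higher. The median of the list was −1.24 log2 units, and 31 of the 32 lay below the parent in both. The median level of the list was 47.6, 22.3 and 17.5, and 31 of the 32 genes were lower in the double than in the single deletion. *nop7*, needed for the processing of the large-subunit RNA, was at 127, 54.4 and 42.2. *has1*, an RNA helicase gene, was at 113, 51.6 and 50.6. *sik1*, which encodes a protein of the box C/D particles that methylate ribosomal RNA, was at 258, 129 and 107, at the edge of the limit and not called under median-of-ratios scaling. The largest difference was that of *pxr1*, at 42.7, 15.8 and 11.3. The 12 genes not called included *rat1*, a nuclear exonuclease gene, at 55.3, 52.0 and 43.1, and *dbp5*, whose product acts in the export of messenger RNA, at 95.4, 96.3 and 86.2.

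Limma passed 1 of the 32, *lcp5* (50.1, 21.9 and 17.0, adjusted p = 0.047), and with the strain block it passed 15 of the 32, all lower. The error behind those 15 leaves out stable differences between the deletion strains. By the 2-fold rule the count was 19 under median-of-ratios scaling and 26 with equal totals. The genes for ribosomal proteins and translation initiation, 12 in number, had a median of −0.46 log2 units with 0 called in either direction (limma 0, smallest adjusted p = 0.118). In the salt libraries the ribosome assembly genes were not lower: their median level was 7.65 in the parent against 14.6 and 8.93, 21 of the 32 were above the parent in both deletion strains, and the median difference was 0.49. By the 2-fold rule 1 of the 32 was called higher there and 0 lower, against 6.9% and 2.68% of all genes, and with equal totals 0 were called in either direction. The called gene was the helicase gene *dbp9*, at 45.1, 18.3 and 14.4 without salt and at 4.73, 12.8 and 10.2 with it.

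**Figure D2:**
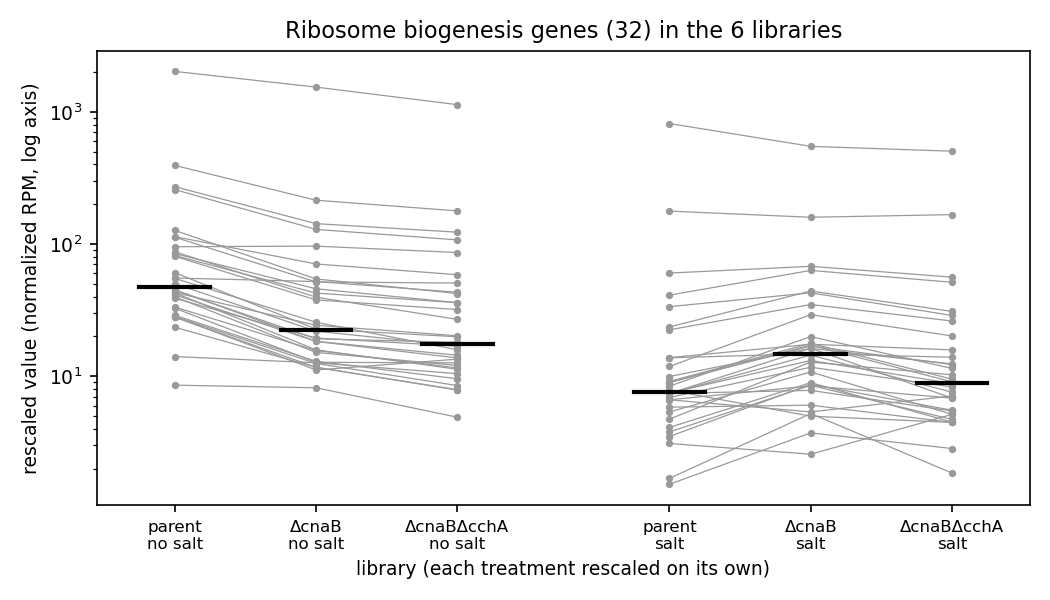
Levels of the 32 ribosome biogenesis genes in the 6 libraries, on a log axis of TMM-rescaled RPM, with each treatment rescaled on its own, 1 grey line per gene and treatment and black bars at the library medians. Without salt the medians are 47.6, 22.3 and 17.5 in the parent, single deletion and double deletion, and with salt 7.65, 14.6 and 8.93.

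Of the 37 cell wall genes tested, 6 were higher and 4 lower, with a median of 0.33 log2 units. Over all genes 11.2% were higher and 4.83% lower, and the counts of higher genes in the cell wall, HOG, stress and conidiation lists were close to that share, so their genes are described one by one and not as groups. The higher genes included *chiA1*, a chitinase gene (5.09, 30.9 and 40.5, limma adjusted p = 0.036), the α-glucan synthase gene *ags1* (363, 849 and 1079) and *rlmA* (58.7, 119 and 153), which encodes the transcription factor of the cell wall integrity pathway. *bgt2*, a β-1,3-glucanosyltransferase gene, was at 2513, 5446 and 5295. *ags1*, *rlmA* and *bgt2* lost the call with equal totals and with the deposited values. *agd3* (343, 2056 and 1440) and *gtb3* (182, 865 and 774) belong to the synthesis of galactosaminogalactan, an adhesive polysaccharide known from *A. fumigatus*, and *gtb3* passed limma (adjusted p = 0.033). The lower genes were those for other wall-remodelling enzymes: *gel2*, a glucan elongase gene, at 314, 144 and 147 (adjusted p = 0.020), the glucanase genes *exgO* (97.3, 31.1 and 36.2, adjusted p = 0.044, and 0.055 with the strain block) and *eng2* (611, 246 and 304), and *sun1* (1844, 798 and 859). Limma passed 4 cell wall genes as higher and 2 as lower, and 8 and 3 with the strain block.

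Some members of the osmotic stress pathway were higher in the deletion strains without any salt. The HOG pathway relays osmotic stress to the MAP kinase SakA, and 2 of its 16 genes were higher, 0 lower (median 0.46). These were *tcsB*, the gene of a membrane histidine kinase, at 85.6, 234 and 243 (limma adjusted p = 0.031) and *atfB*, a bZIP transcription factor gene, at 11.8, 64.4 and 54.0 (adjusted p = 0.021). *sakA* was at 173, 323 and 306, just under 2-fold (adjusted p = 0.033). Among 19 genes for oxidative and heat stress, the catalase gene *cat1* (AN9339) stood out at 196, 1867 and 1472, 3.08 ± 0.26 log2 units above the parent (SE, limma adjusted p = 0.022), and it was higher with salt too, at 177, 456 and 600. *hsp78*, a mitochondrial chaperone gene, was also higher, at 359, 769 and 1195, though not with equal totals, and the superoxide dismutase gene *sod4* was lower at 147, 72.7 and 60.9 (adjusted p = 0.040, and 0.051 with the strain block). The conidial catalase gene *catA* split the deletion strains, at 3.81, 27.4 and 0 without salt and at 1458, 3113 and 10.9 with it.

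Regulators of development went both ways. Of 39 genes for conidiation and sexual development, 4 were higher and 4 lower, with a median of 0.03. *esdC*, a gene of early sexual development, was at 159, 768 and 666 (limma adjusted p = 0.047, and 0.054 with the strain block). The regulator genes *medA* (130, 294 and 295, adjusted p = 0.019) and *stuA* (226, 461 and 456, adjusted p = 0.036) were about 2-fold higher, and not called with equal totals. *lreB*, of the blue-light sensing complex, was at 4.16, 14 and 10.9. Lower were the hydrophobin gene *rodA* (14.2, 0 and 0), *tmpA* (35.2, 5.25 and 8.85), whose product takes part in making a signal for conidiation, *gpaA* (102, 47.3 and 48.9), and *sclB* (55.9, 6.32 and 10.7), a transcription factor gene. The early regulator genes *flbB* (88.4, 54.4 and 52.1) and *flbC* (177, 87.0 and 93.9) were under the limit but passed limma as lower (adjusted p = 0.045 and 0.031), *flbB* not with the strain block (0.053).

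Genes for cell polarity and septation and for the cell cycle were within 2-fold in at least 1 deletion strain. None of the 25 polarity genes was called in either direction (0 higher, 0 lower, median −0.23), while limma passed 1 as higher and 3 as lower, and 1 and 4 with the strain block. The 3 were the septin genes *aspB* (603, 309 and 299, adjusted p = 0.028) and *aspC* (502, 243 and 275, adjusted p = 0.049) and *teaR* (104, 58.0 and 58.1, adjusted p = 0.035), which anchors the polarity marker TeaA at the tip; with equal totals 3 of the list were called lower. The 14 cell cycle and chromatin genes (median −0.31) and the 16 proteasome genes (median −0.04) gave 0 calls under either rule, at a smallest adjusted p of 0.093 and 0.142 in limma; with the strain block 1 cell cycle gene passed as lower.

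Several transport and nutrient genes differed one by one. Of 20 genes for iron and zinc acquisition, 4 were higher and 2 lower, against 11.2% and 4.83% of all genes. Among the higher, *zrfA* (8.96, 20.9 and 20.3) and *zrfC* (9.44, 51.2 and 27.4) encode zinc transporters, and *aspf2* (35.8, 169 and 104) a zinc-scavenging protein known from *A. fumigatus*. The fourth was *ctpA* (24.9, 51.7 and 50.7). In the same list *zrfB* was not called, at a limma estimate of −0.11 log2 units. *zrfD*, at an estimate of 1.01, was past 2-fold on average but not in both deletion strains, and was not called either. *zrfA* and *ctpA* lost the call with equal totals and with the deposited values, under which 2 genes of the list were higher and 5 lower, and *ctpA* also with log2(value + 1). Lower were *sidI* (22.9, 7.99 and 3.32), of siderophore synthesis, and *mirD* (9.33, 3.96 and 2.17), a siderophore transporter gene. In nitrogen use, 3 of 18 genes were higher and 1 lower, against 11.2% and 4.83% of all genes. The xanthine dehydrogenase gene *hxA* was at 49.0, 221 and 313 (limma adjusted p = 0.027) and the regulator gene *amdX* at 78.3, 184 and 240, the latter not called with the deposited values. Within the proline cluster the members parted: the permease gene *prnB* was at 16.0, 2.31 and 2.04 (adjusted p = 0.028) and the proline oxidase gene *prnD* at 1.29, 4.01 and 4.83 (adjusted p = 0.035, and 0.051 with the strain block). In carbon metabolism 1 of 21 was called, the gluconeogenic fructose-1,6-bisphosphatase gene *fbp1* at 100, 330 and 459 (adjusted p = 0.032). In sterol synthesis *erg8*, the phosphomevalonate kinase gene, was higher at 153, 472 and 480, and again with salt at 126, 389 and 428, whereas *erg6*, the sterol methyltransferase gene, was lower at 425, 195 and 209 (adjusted p = 0.019 and 0.025). The median of the 17 sterol genes was −0.39. The pyrimidine list (9 genes) held 1 lower gene, *cpa1* of carbamoyl phosphate synthesis, at 382, 185 and 142. For cation and pH homeostasis only 2 of 15 entries were found and tested, with 0 calls.

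**Figure D3:**
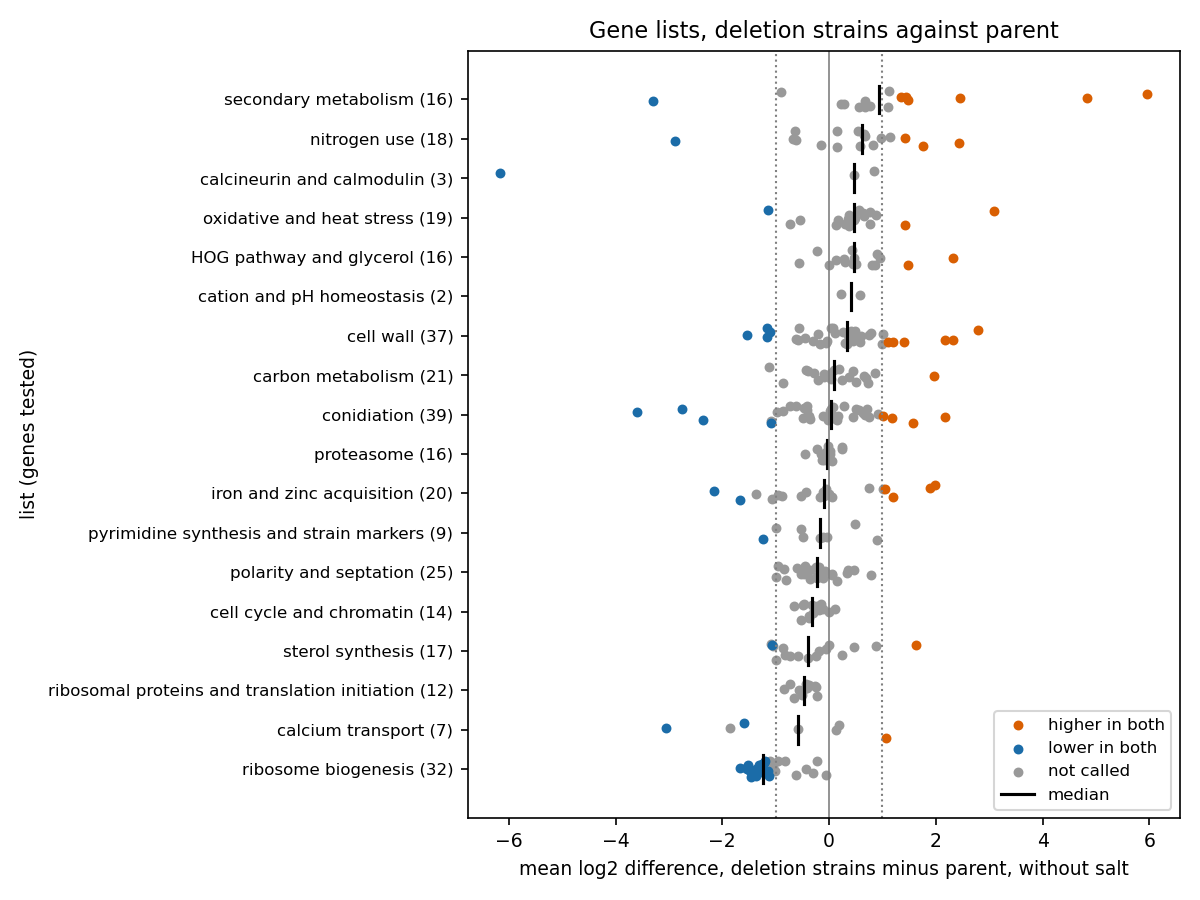
Mean log2 difference of the deletion strains from the parent without salt for every tested gene of each list, 1 point per gene, with the list median as a black bar, dotted lines at 1 and −1, and colour for genes past the limit in both deletion strains. The ribosome biogenesis list lies farthest below 0 (median −1.24) and secondary metabolism farthest above (median 0.94).

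Secondary metabolism gave the highest list median, 0.94 log2 units, with 6 of 16 tested genes higher and 1 lower, against 11.2% and 4.83% of all genes. The list had 69 entries, of which 25 were found by symbol, so most of it was not tested. With equal totals and with the deposited values 4 were higher. *nrps1*, a non-ribosomal peptide synthetase gene, was at 1.59, 147 and 67.4 (limma adjusted p = 0.031) and *admA* at 1.96, 89.3 and 35.3 (adjusted p = 0.038). *sidC*, the synthetase gene of an intracellular siderophore, was at 18.5, 47.3 and 55.6. *fmaG* was at 10.7, 67.9 and 49.7 and *fmaE* in the opposite direction at 12.3, 1.34 and 0, although both carry the *fma* name. *fma-PKS* (3.17, 6.57 and 9.83) and *gliT* (2.18, 5.05 and 6.85) were low throughout and lost the call with equal totals.

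Many of the genes with a large positive difference lay side by side in the genome. Taken in RefSeq order over the 10029 genes that could be placed, 15 runs of at least 4 neighbouring genes were called in the same direction, 13 of them higher and 2 lower, with 85 genes in all. Of these 85 genes 55 were called in the same direction with salt. Of 70 neighbouring pairs within the runs, 1 overlapped in RefSeq; whether reads were counted by strand is not given in the sources used here.

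The longest runs were a pair of 13 genes each, AN7873 to AN7884 and AN7893 to AN7904. The second contains AN7896 to AN7903, the *dba* cluster, known for making a benzaldehyde derivative through a polyketide. The 13 genes summed to 29.7, 23126 and 17197. AN7893 was at 2.31, 4414 and 3128, and AN7897 at 2.07, 3056 and 2668. AN7902 and AN7903 were listed at 0 in the parent and reached 1739 and 1472 and 1516 and 1139. The last gene of the run, AN7904, was far less different, at 7.09, 19.9 and 18.2. All 13 were also higher in both deletion strains with salt, where the sums were 30.8, 9838 and 7625.

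The first run, AN7873 to AN7884, summed to 164, 3422 and 2146. The largest part in each library was AN7877, at 121, 1379 and 919. AN7880 was at 1.23, 148 and 84.6 and AN7875 at 0, 124 and 64.9. With salt 10 of the 13 were called again, and the sums were 81.4, 2508 and 1640. In both runs every gene was lower in the double than in the single deletion, a difference between single libraries. The 8 genes between the runs did not follow them: of the 6 tested, 1 was higher, AN7891 at 6.59, 63.0 and 68.9, while AN7892 was at 883, 815 and 1365. Together the 26 genes of the runs took up 0.0216% of all values in the parent and 2.53% and 1.82% in the deletion strains.

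**Figure D4:**
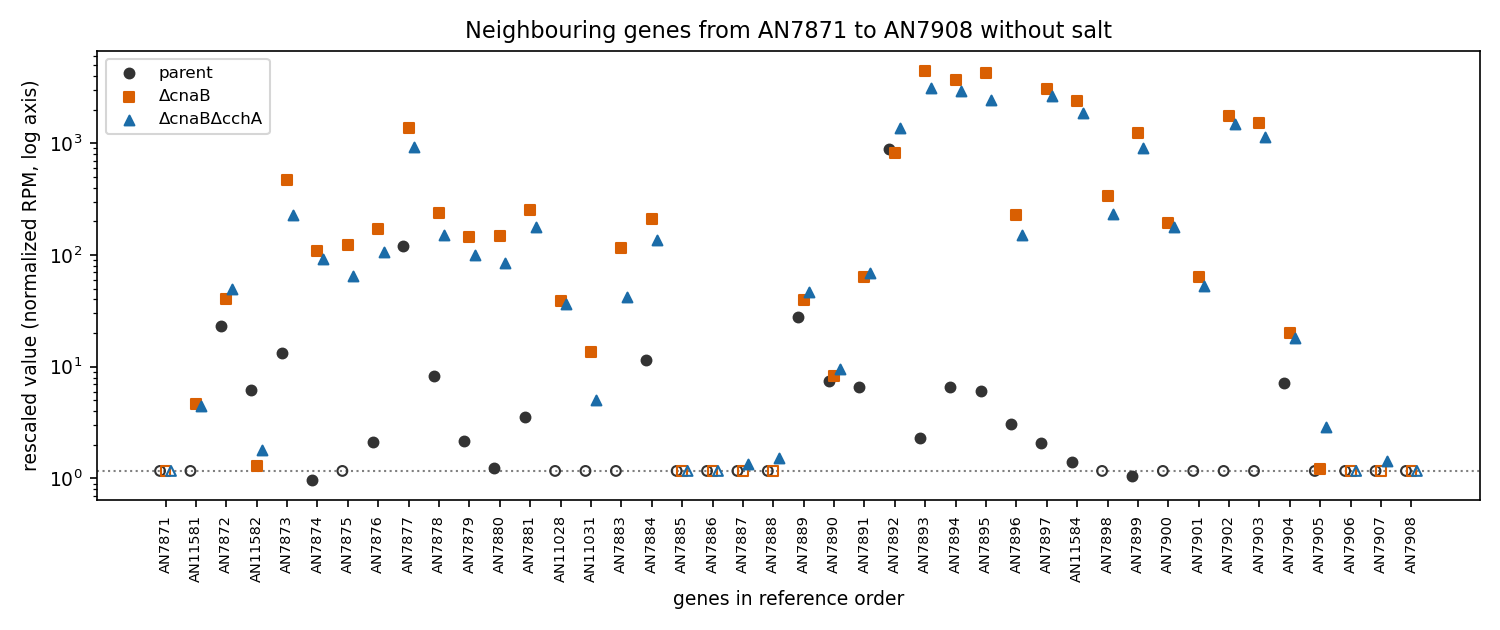
Levels in the 3 untreated libraries of consecutive genes in RefSeq order around AN7873 to AN7904, on a log axis of TMM-rescaled RPM, with genes listed at 0 drawn open on the dotted line. The 2 runs of 13 genes stand above the parent in both deletion strains, with 8 genes between them of which 1 is higher.

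The other runs were shorter. AN0532 to AN0528 was listed at low values in the parent, with 4 of its 5 genes listed at 0 and a sum of 1.31, against 1087 and 608. All 5 were called again with salt, at sums of 1.23, 2775 and 1836. AN8366 to AN8370 (5 genes) summed to 54.7, 1250 and 1123. AN8366, at 2.87, 902 and 882, made up most of the sum in the deletion strains but not in the parent, and 1 of its genes was called with salt. AN5168 to AN5173 (6 genes) summed to 57.6, 483 and 497, also with 1 called with salt. AN1713 to AN1716 (4 genes) summed to 32.3, 451 and 539. In the lower direction, AN8134 to AN8137 (4 genes) was at 12.5 to 24.0 in the parent and listed at 0 throughout in both deletion strains. With salt that run was lower again in all 4 genes, at sums of 91.1, 9.99 and 9.23. The 5 genes AN3209 to AN3205 summed to 280, 40.0 and 58.4.

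AN11584, also in the second long run, was at 1.40, 2403 and 1878. Outside the runs several single genes differed as widely, with AN8308 at 4.31, 2326 and 1615 and AN7333 at 1.03, 221 and 154. Of the genes called and listed in all 3 libraries, the 10 with the largest mean difference were all called higher with salt as well. At the other end, AN2578 was at 913, 2.51 and 10.3, AN8218 at 183, 2.51 and 2.81 and AN0759 at 160, 1.60 and 10.2. AN7539 was at 344, 14.8 and 33.7, and AN5046, at 176, 1.95 and 72.0, was much lower in Δ*cnaB* than in the double deletion. Of the 10 with the smallest mean difference by the same limit, 9 were also called lower with salt. RefSeq gives no symbol for these genes. AN3339 was listed at 0 in the parent and at 59.4 and 56.2 in the deletion strains, and AN11510 at 22.8 in the parent and 0 in both.

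Genes that the study followed under salt had a range of levels in these cultures. No untreated library listed AN2638, AN2841, AN3210, AN8585 or AN10499 above 0, so a difference below the listing limit could not be seen. The smallest values listed in these libraries stood for 45, 47 and 55 reads. *mfsA* (AN9168), a transporter gene, was at 33.7, 21.1 and 11.2, AN5593 at 62.5, 48.9 and 40.8 and *mmm1* (AN9528), of the contact sites between endoplasmic reticulum and mitochondria, at 30.7, 25.9 and 34.5. Of the 19 genes the study names by AN identifier, 6 were called, all higher, against 11.2% higher and 4.83% lower over all genes tested. The 19 include the genes above that no untreated library listed, which were not tested. Besides AN7893, AN7902 and AN7903 above, these were AN0531 at 0, 320 and 156, AN3085 at 27.2, 177 and 81.5 and AN6881 at 20.7, 115 and 122. The study drew the 19 from genes it called in its salt comparisons, and AN7893, AN7902 and AN7903 lie in the same run. The count is therefore not read as a trait of these genes. AN6718, at 11.4, 37.8 and 20.9, passed the limit in Δ*cnaB* alone. *aclA* (AN2435), the ATP citrate lyase gene, was at 1435, 1594 and 1642.

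The salt libraries, which share no library with the untreated comparison, gave the same direction for part of the genes. With salt 607 genes (6.90%) were higher and 236 (2.68%) lower in both deletion strains. Of the 980 genes higher without salt 367 (37.4%) were among the 607, where they made up 60.5%, and of the 422 lower genes 91 (21.6%) were among the 236, where they made up 38.6%. In the opposite direction were 1 and 6 genes. The larger differences came back more often: 98 of the 119 genes above 3 log2 units and 24 of the 31 below −3 were called again, against 156 of 625 and 40 of 341 with a mean difference up to 2. The median of the higher genes was 1.71 without and 0.88 with salt, and that of the lower genes −1.45 and −0.27. These genes were chosen by their differences without salt, so medians nearer to the parent with salt could arise even from equal effects. Whether the effect of the deletions differed between the treatments was tested gene by gene with the limma interaction, which 0 of 9060 genes passed (smallest adjusted p = 0.113), with 1751 at an unadjusted p under 0.05. That fit takes stable differences between the deletion strains as error: for *cchA* the SE of the interaction was 4.25, against 0.21 with the strain block. With the block 0 genes passed too (smallest adjusted p = 0.150, 1 residual degree of freedom), with 2251 at an unadjusted p under 0.05, which does not show that the effects were equal.

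**Figure D5:**
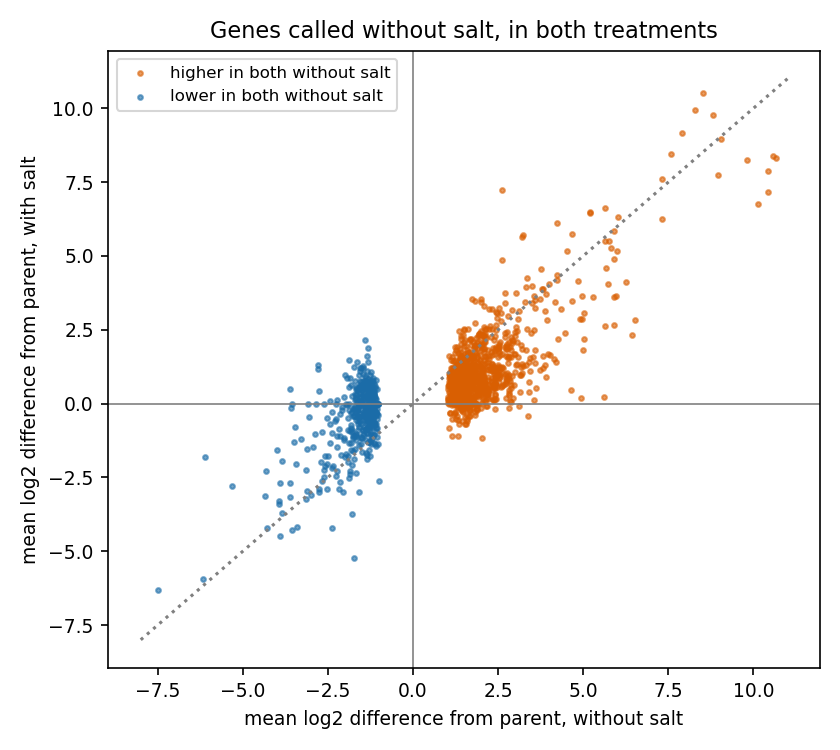
Mean log2 difference of the deletion strains from the parent without salt (horizontal) and with 800 mM NaCl (vertical) for the genes called without salt, 1 point per gene, with a dotted line where both are equal. Of the 980 higher genes 367 are also called higher with salt, and of the 422 lower genes 91 are also called lower.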

How the data were processed

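RNA-seq libraries (paired-end) were mapped by the authors with TopHat and quantified with RSEM. The deposited values, a signal, are RPM (reads scaled to the library total) adjusted by TMM within each strain's pair of libraries, with values under 1 listed as 0 and genes without a value taken here as listed at 0. Every listed value was within 0.1 reads of a whole multiple of the value of 1 read, which gave the reads quoted, and since reads are not independent molecules, counting intervals are too narrow. The deposited values are scaled and are not counts. Count models were not run, although reads were recovered for the listed genes. TMM factors and median-of-ratios factors were computed directly on the values, and both points are a change from the plan. Differences were log2 values from Python 3.11.15; limma 3.58.1 (R 4.3.3) was fitted with a mean-variance trend, and again with strain as a block, since each strain gave 1 library of each treatment. The 2-fold rule and both limma fits were also run on simulated data. There both untreated deletion libraries had the same changes and strains did not otherwise differ, so deletion strains standing in for replicates was not tested. Of 10957 genes, 10029 matched the RefSeq table (assembly ASM1142v1), which gave 778 symbols and gene order. The authors mapped to another assembly, so no coordinates are given.

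The genes and 18 lists (322 genes tested) were chosen with earlier results of these data known. Named were the deleted genes and strain markers, list genes, the 10 largest and 10 smallest mean differences among called genes listed in all 3 libraries, the 8 highest genes listed at 0 in the parent or in both deletion libraries, runs of at least 4 neighbours, and genes the study names by AN identifier. AN7891, AN7892, AN1434 and AN3114 were added after their values were seen.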

Additional observations from a re-analysis of the deposited data

Results flagged for a closer look

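In 7 genes the deletion strains lay on opposite sides of the parent in the 2 treatments, each past 2-fold in both. The gap between the mean difference without and with salt was −3.55 log2 units for AN10332, −3.19 for AN1434, −2.98 for AN1474, −2.71 for AN3427, −2.75 for *dbp9* (AN6374), −2.98 for AN8981 and 2.26 for AN3114. AN1434, for example, was at 66.9, 32.5 and 22.2 without salt, in the order used above, and at 5.12, 25.3 and 13.9 with it, and AN3114 was at 57.1, 120 and 135 and at 193, 87.8 and 91.7. For AN8981 all 3 libraries were higher with salt, at 61.4, 134 and 156 against 24.5, 11.1 and 4.81. The limma interaction passed for none of the 7 (adjusted p 0.117 to 0.209, and 0.150 to 0.175 with the strain block).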

How the results depend on the processing

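The count of genes higher in both deletion strains was 980 and ranged from 708 to 1085 over the other scalings, pseudocounts and the filter of 5, but was 277 with a limit of 2 log2 units and 1172 to 1347 when 1 deletion library was left out. The count of lower genes, 422, was 783 with equal totals, 854 with the deposited values, 60 with the limit of 2, and 532 to 781 with 1 deletion library left out (781 without Δ*cnaB*). The genes called again with salt, 367 and 91, were 100 and 25 with the limit of 2 and 399 to 405 and 100 to 113 with 1 deletion library left out; the lower ones were 173 with equal totals and 178 with the deposited values. The limma counts, 829 higher and 337 lower, were 337 and 173 with no filter, 1307 and 734 with a filter of 5, and 3 and 0 with the untreated libraries alone (1672 and 1240 at an unadjusted p under 0.05). The lower count was 1178 with equal totals and 1437 with the deposited values. Leaving out 1 library gave 0 to 900 higher and 0 to 377 lower, the upper ends without the salt library of the parent and 0 without any one deletion library, where 1 residual degree of freedom was left. Of 104 named called genes, 90 were called under all 3 other scalings. The parent's untreated library cannot be left out. The count-model alternatives planned were not run, although reads were recovered for the listed genes. The libraries pair by strain. With strain as a replicate block, an alternative added after seeing the data, limma gave 1025 higher and 567 lower, with 725 of the 829 and 264 of the 337 among them, and without the interaction term 906 and 492. The counts with the block do not allow for variation between the deletion strains.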
